A study of Mus musculus with 8 samples.

Results

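The transforming growth factor β (TGF-β) genes described here are 9 genes of the ligand-to-target route: the ligand genes Tgfb1, Tgfb2 and Tgfb3, the receptor genes Tgfbr1, Tgfbr2 and Tgfbr3, the signal transducer genes Smad2 and Smad3, and Tmeff1, a TGF-β target. They were taken by gene symbol from 28791 symbols, and each had a single row in both expression tables. The study sorted hair follicle stem cells, which sit in the bulge of the follicle and regrow the hair in each cycle, from mouse back skin. Of its 8 samples, 4 are RNA sequencing libraries, 1 in each group, and these form 2 comparisons. The other 4 samples, from chromatin immunoprecipitation, were not analysed here. In the first comparison, cKO cells carried the genotype K15CrePGR;Ctnnb1fl/fl;Rosa-YFPfl/stop/fl and Het cells the genotype K15CrePGR;Ctnnb1+/fl;Rosa-YFPfl/stop/fl. Both came from C57BL6/129Sv females of day 99, and Ctnnb1 encodes β-catenin, the transducer of canonical Wnt signalling. The Het cells thus share the Cre driver, the reporter and 1 floxed allele with the cKO cells. K15CrePGR drives Cre from the promoter of a bulge keratin, so recombination is limited to cells that use it, and the labels do not state the share of recombined cells. They place this pair in telogen (rest) in one field and at the start of anagen (growth) in another. In the second comparison, LacZ(+) and LacZ(-) bulge cells came from C57BL6 males of day 24 with the Axin2LacZ/+ genotype, which both populations share, as follicles passed from telogen to anagen. They were separated by the activity of a reporter of the Wnt target Axin2. The labels do not state how many mice went into a library.

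TGF-β ligands are secreted in a latent form, bound to their own propeptide and to latent TGF-β binding proteins, and integrins or thrombospondin release them. The active ligand binds the receptor encoded by Tgfbr2, which recruits and activates the kinase encoded by Tgfbr1. That kinase phosphorylates the Smad2 and Smad3 proteins, which enter the nucleus with Smad4. Tgfbr3 encodes betaglycan, a co-receptor that presents ligand and is best known for raising the binding of the Tgfb2 product. In mouse hair follicles the Tgfb2 product, described as a signal of the dermal papilla, is known for helping to start the growth phase, with Tmeff1 as a target gene in the stem cells that lowers the response to BMP signals. The Tgfb1 product is known as a brake on keratinocyte division and for its part in follicle regression.

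Tgfb2 and Tmeff1, which stood in opposite directions to each other in both comparisons, are shown with the 300 bases around their start sites, from 250 before to 50 after it, read from the RefSeq promoter table of build GRCm38.p6. That table held 6 of the 9 genes and had no row for Tgfb3, Tgfbr3 or Smad2. Capitals mark CAGAC or its reverse complement GTCTG, the short box bound by Smad proteins. The sequences of Tgfb2 (chr1:186705940-186706239, minus strand) and Tmeff1 (chr4:48584924-48585223, plus strand) read 5′ to 3′ as follows.
Tgfb2: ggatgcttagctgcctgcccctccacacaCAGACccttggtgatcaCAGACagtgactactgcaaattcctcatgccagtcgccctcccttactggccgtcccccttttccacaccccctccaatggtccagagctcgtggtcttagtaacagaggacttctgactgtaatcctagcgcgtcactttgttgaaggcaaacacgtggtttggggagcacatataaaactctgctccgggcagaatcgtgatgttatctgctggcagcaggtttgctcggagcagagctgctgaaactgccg
Tmeff1: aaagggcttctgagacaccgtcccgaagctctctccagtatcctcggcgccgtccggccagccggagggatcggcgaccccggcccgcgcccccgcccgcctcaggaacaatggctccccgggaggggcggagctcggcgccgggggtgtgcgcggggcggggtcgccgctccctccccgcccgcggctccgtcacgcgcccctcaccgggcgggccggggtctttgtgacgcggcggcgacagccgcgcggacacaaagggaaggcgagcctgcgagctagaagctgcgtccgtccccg
The Tgfb2 window held 2 matches to the Smad box and the Tmeff1 window 0, where 49.6% of 32851 promoter windows of the same length held at least 1 match on either strand and 16.2% held 2 or more. The core letters of the TCF site, CTTTGA or TCAAAG, were in neither window, nor in the other windows of the members that the table holds. Of all windows, 16.0% held them. The start sites of Tgfb3, Tgfbr3 and Smad2 were not searched, so the absence does not cover them. The Tgfb2 window was 54.3% G or C and the Tmeff1 window 76.0%. A match is a string of letters, and binding was not measured here.

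The values are FPKM (fragment numbers divided by transcript length and by library total), which account for length, so genes can be ranked within a library. How many reads lie behind a value is unknown, no spread between samples can be had, and every difference below describes these libraries only. The 2 tables were normalised apart, and levels set across them are given side by side without a comparison. The bulge keratin gene Krt15 stood at 7528 FPKM in cKO cells, 6208 in Het cells and 5951 in LacZ(+) cells and is listed at 0 in LacZ(-) cells. Of 10 bulge markers listed, 9 reached 1 FPKM in LacZ(-) cells, all but Krt15. Whether the listed 0 is a lack of Krt15 transcript or a missing value was not tested. The bulge surface marker Cd34 stood at 752 FPKM in cKO cells and 645 in Het cells. In the LacZ pair Cd34 was lower in LacZ(+) cells, at 223 FPKM, than in LacZ(-) cells, at 516. Of the 10 bulge markers, 5 were higher in LacZ(+) cells, with Krt15 counted among them, and 5 were lower. Ctnnb1 stood at 370 FPKM in the library labelled cKO and 251 in that labelled Het, opposite to a loss. One FPKM per gene cannot show the floxed exons apart, so it checks neither label, and both libraries are named by their labels below. Axin2, a target of the Wnt signals that β-catenin carries, was lower in the library labelled cKO, at 2.12 FPKM against 16.3 in that labelled Het.

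All 9 genes stood above 1 FPKM in each library, between percentiles 1.40 and 60.8 of the genes at or above that level there. Smad2 was the highest in every library, between 16.8 and 18.8 FPKM, at percentiles 59.5 to 60.8. Tgfbr1 came next in every library but LacZ(+), where Tgfb3 stood between them. The lowest place was held by Tgfb3 in cKO-labelled cells (1.14 FPKM), by Tmeff1 in Het-labelled and LacZ(+) cells (2.50 and 1.76 FPKM) and by Tgfb2 in LacZ(-) cells (1.52 FPKM). With no spread between samples, the order of the other genes could not be tested against noise. Some neighbours, such as Smad3 and Tgfbr2 in LacZ(+) cells (3.56 and 3.55 FPKM), lay side by side.

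**Figure D1:**
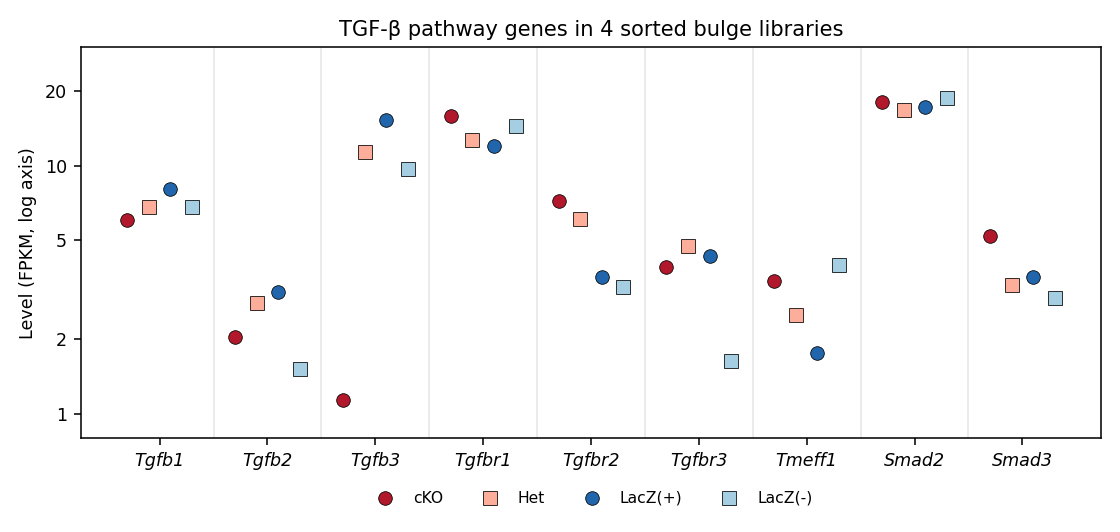
Level of each of the 9 genes in each library (FPKM, log axis), with 1 point per library. Tgfb3 stands at 1.14 in cKO-labelled cells and 11.4 in Het-labelled cells, and at 15.3 in LacZ(+) cells and 9.66 in LacZ(-) cells. Smad2 stands between 16.8 and 18.8.

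Among the ligand genes, Tgfb3 was far lower in cKO-labelled than in Het-labelled cells, and all 3 ligands leaned the same way in each comparison: lower in cKO-labelled cells and higher in LacZ(+) cells. Tgfb3 (ENSMUSG00000021253, mm9 chromosome 12, 87397693 to 87419991) stood at 1.14 FPKM in cKO-labelled cells, against 11.4 in Het-labelled cells, and at 15.3 in LacZ(+) cells, against 9.66 in LacZ(-) cells. The cKO-labelled library was the low one of its pair. Its FPKM was 9.99-fold lower in cKO-labelled cells, which is a log2 difference of -2.53 after 1 FPKM is added to both values, the scale used for all differences below. With 0.1 FPKM added it was -3.21 and with 5 FPKM added -1.42. The authors' deposited table gives a log2 ratio of -3.32. Of the 13014 genes measured in that pair, meaning at 1 FPKM in at least one of its libraries, 95 including Tgfb3 lay as low or lower. Under a restriction chosen after seeing the data, to genes above 0 in both libraries and without small RNA, clone, Gm or Rik names, it was 10 of 10759. In the second comparison its log2 difference was 0.61, inside the 2-fold line, which was set at a log2 difference of 1.

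Tgfb1 (ENSMUSG00000002603, mm9 chromosome 7, 26472020 to 26490096) stood at 6.03 FPKM in cKO-labelled cells and 6.79 in Het-labelled cells (log2 difference -0.15). In the LacZ pair it stood at 8.08 FPKM in LacZ(+) cells and 6.85 in LacZ(-) cells (0.21). These levels are close to each other. Tgfb2 (ENSMUSG00000039239, mm9 chromosome 1, 188447064 to 188529871) stood at 2.04 FPKM in cKO-labelled cells and 2.79 in Het-labelled cells (log2 difference -0.32). In the LacZ pair it stood at 3.10 FPKM in LacZ(+) cells and 1.52 in LacZ(-) cells, a 2.04-fold ratio of FPKM that came to a log2 difference of 0.70 with the added 1 FPKM. Tgfb2 is the only one of the 9 whose interval in the tables holds another gene, the small RNA gene SNORA70, so reads of both can be mixed there.

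The make-up of the ligand transcripts thus differed between cKO-labelled and Het-labelled cells. Tgfb3 made up 12.4% of the summed FPKM of the 3 ligands in cKO-labelled cells and 54.3% in Het-labelled cells, and 57.7% in LacZ(+) cells and 53.6% in LacZ(-) cells. Tgfb1 was the leading ligand gene in cKO-labelled cells (65.5%) and came after Tgfb3 in the other libraries (30.6% to 38.0%). The 3 ligands summed to 9.21 FPKM in cKO-labelled cells and 21.0 in Het-labelled cells, and without Tgfb3 to 8.07 and 9.59. In LacZ(+) cells they summed to 26.5 FPKM and in LacZ(-) cells to 18.0. Because these are sorted bulk cells, fewer cells that express a gene and less RNA per cell cannot be told apart.

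The receptor genes stayed within 2-fold in the first comparison, and Tgfbr3 passed the line in the second. Tgfbr1 (ENSMUSG00000007613, mm9 chromosome 4, 47366093 to 47427803), the signalling kinase, stood at 15.9 FPKM in cKO-labelled cells and 12.7 in Het-labelled cells, and at 12.0 in LacZ(+) cells and 14.5 in LacZ(-) cells, with log2 differences of 0.30 and -0.26. Tgfbr2 (ENSMUSG00000032440, mm9 chromosome 9, 115993414 to 116084383), which binds the ligand, stood at 7.23 FPKM in cKO-labelled cells and 6.10 in Het-labelled cells, and at 3.55 in LacZ(+) cells and 3.26 in LacZ(-) cells, with log2 differences of 0.21 and 0.10. Both genes thus differed little within their pairs. Tgfbr3 (ENSMUSG00000029287, mm9 chromosome 5, 107535588 to 107718648), the co-receptor, stood at 3.92 FPKM in cKO-labelled cells and 4.76 in Het-labelled cells (log2 difference -0.23). Among the LacZ libraries it stood at 4.35 FPKM in LacZ(+) cells and 1.63 in LacZ(-) cells. The LacZ(-) library was the low one. The ratio of FPKM was 2.67 and the log2 difference 1.03, just past the 2-fold line, and with 5 FPKM added it was 0.50. In that comparison 590 of the 13283 genes measured lay as high or higher, and 368 of 10973 under the restriction used for Tgfb3.

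The receptor make-up followed Tgfbr3. It was 21.9% of the summed FPKM of the 3 receptors in LacZ(+) cells and 8.38% in LacZ(-) cells, and 14.5% in cKO-labelled cells and 20.2% in Het-labelled cells. The kinase Tgfbr1 was 60.2% in LacZ(+) cells and 74.8% in LacZ(-) cells, and 58.8% in cKO-labelled cells and 53.9% in Het-labelled cells. The receptor sum itself was 27.1 FPKM in cKO-labelled cells and 23.6 in Het-labelled cells, and 19.9 in LacZ(+) cells and 19.4 in LacZ(-) cells. Set against it, the ligand sum was 0.340 of the receptor sum in cKO-labelled cells and 0.891 in Het-labelled cells, and 1.33 in LacZ(+) cells and 0.929 in LacZ(-) cells.

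**Figure D2:**
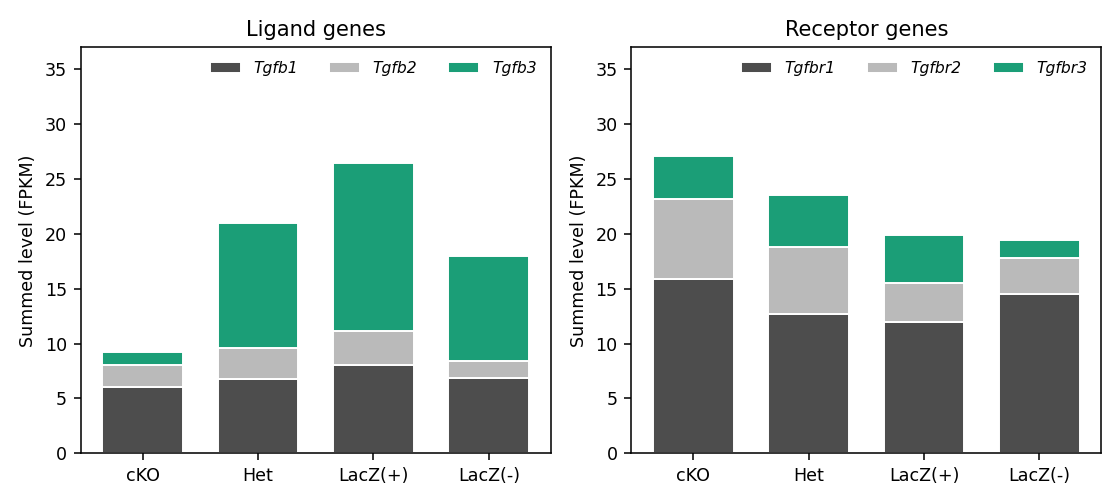
Summed FPKM of the 3 ligand genes (left) and of the 3 receptor genes (right) in each library, 1 bar per library, split by gene. The Tgfb3 block is 12.4% of the ligand sum in cKO-labelled cells and 54.3% in Het-labelled cells, and 57.7% in LacZ(+) and 53.6% in LacZ(-) cells. The Tgfbr3 block is 14.5% of the receptor sum in cKO-labelled cells and 20.2% in Het-labelled cells, and 21.9% in LacZ(+) and 8.38% in LacZ(-) cells.

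The transducer genes and Tmeff1 did not reach the 2-fold line. Smad2 (ENSMUSG00000024563, mm9 chromosome 18, 76401233 to 76465385) stood at 18.0 FPKM in cKO-labelled cells and 16.8 in Het-labelled cells, and at 17.3 in LacZ(+) cells and 18.8 in LacZ(-) cells. Its log2 differences were 0.10 and -0.12, and the second turned to 0.05 when differences were centred on the median of the genes that reach 5 FPKM in each library of the pair and to 0.09 with upper-quartile scaling. Smad3 (ENSMUSG00000032402, mm9 chromosome 9, 63494573 to 63605801), which binds DNA directly, stood at 5.21 FPKM in cKO-labelled cells and 3.32 in Het-labelled cells, and at 3.56 in LacZ(+) cells and 2.92 in LacZ(-) cells. Its log2 difference was 0.52 in the first comparison, the highest of the 9 genes, and 0.22 in the second. Smad2 stood above Smad3 in every library, by 3.46-fold in cKO-labelled cells and 5.06-fold in Het-labelled cells, and by 4.85-fold in LacZ(+) cells and 6.45-fold in LacZ(-) cells.

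Tmeff1 (ENSMUSG00000028347, mm9 chromosome 4, 48598045 to 48676003), which encodes a membrane protein with follistatin-like domains, stood at 3.44 FPKM in cKO-labelled cells and 2.50 in Het-labelled cells (log2 difference 0.34). By contrast it stood at 1.76 FPKM in LacZ(+) cells and 3.98 in LacZ(-) cells. The FPKM were thus 2.26-fold lower in LacZ(+) cells, a log2 difference of -0.85, which passed the line only with 0.1 FPKM added (-1.13). Tmeff1 was the lowest of the 9 genes in the second comparison, the one in which the ligands were higher. Its paralogue Tmeff2 stayed at or under 0.114 FPKM in all 4 libraries.

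Counted together, 1 of the 9 genes was lower by 2-fold or more in cKO-labelled cells (Tgfb3) and 0 were higher, where 2.29% and 1.8% of all 13014 genes measured in that pair were. Their median log2 difference was 0.10, against 0.06 for all genes. In the second comparison 1 of the 9 was higher by 2-fold or more in LacZ(+) cells (Tgfbr3) and 0 were lower, where 4.67% and 2.6% of 13283 genes were. The median was 0.21, against -0.13 for all genes. Each count rests on a single gene.

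**Figure D3:**
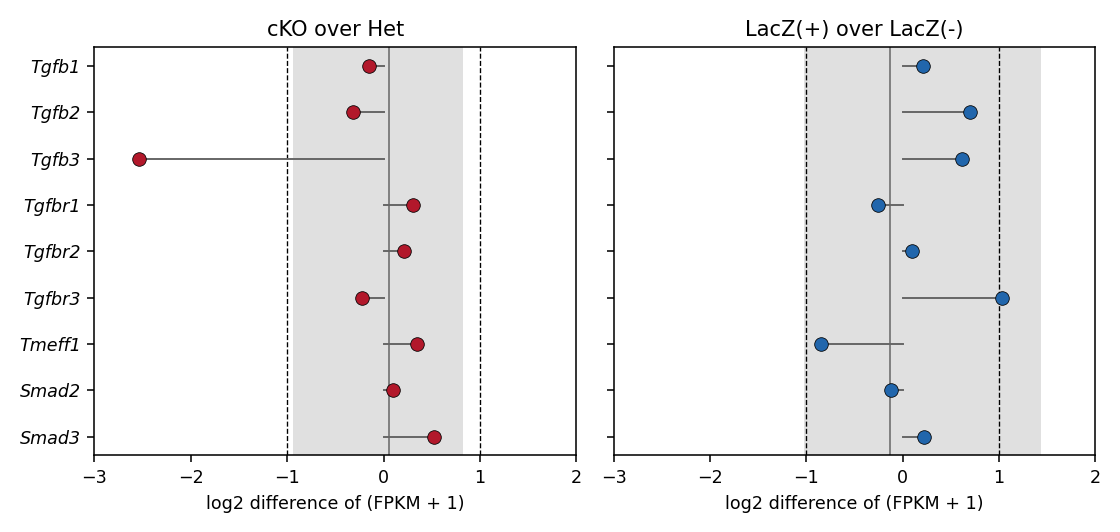
log2 difference of (FPKM + 1) of each gene in the 2 comparisons, with the central 95% of all genes in grey, their median as a grey line and the 2-fold lines dashed. Tgfb3 at -2.53 lies outside the grey band on the left and no gene does on the right, where Tgfbr3 at 1.03 lies past the dashed line.

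No library is shared between the 2 comparisons. Tgfb1, Tgfb2, Tgfb3 and Tgfbr3 were lower in cKO-labelled cells and higher in LacZ(+) cells, and each kept both signs under every alternative that measured it. Of 12499 genes measured in both comparisons, 16.3% had this pair of signs, or 30.8% once the differences were centred on the median of each comparison. Tgfbr1, Tmeff1 and Smad2 were higher in cKO-labelled cells and lower in LacZ(+) cells, a pair of signs that 42.3% of all genes had, or 24.9% after centring, when Smad2 no longer had it. Tgfbr2 and Smad3 were higher in both, as were 18.6% of all genes, or 22.4% after centring, when Smad2 joined them. None of the 9 was lower in both, as 22.7% of all genes were, or 21.8% after centring. Most of these differences are small, and a sign says nothing of their size.

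**Figure D4:**
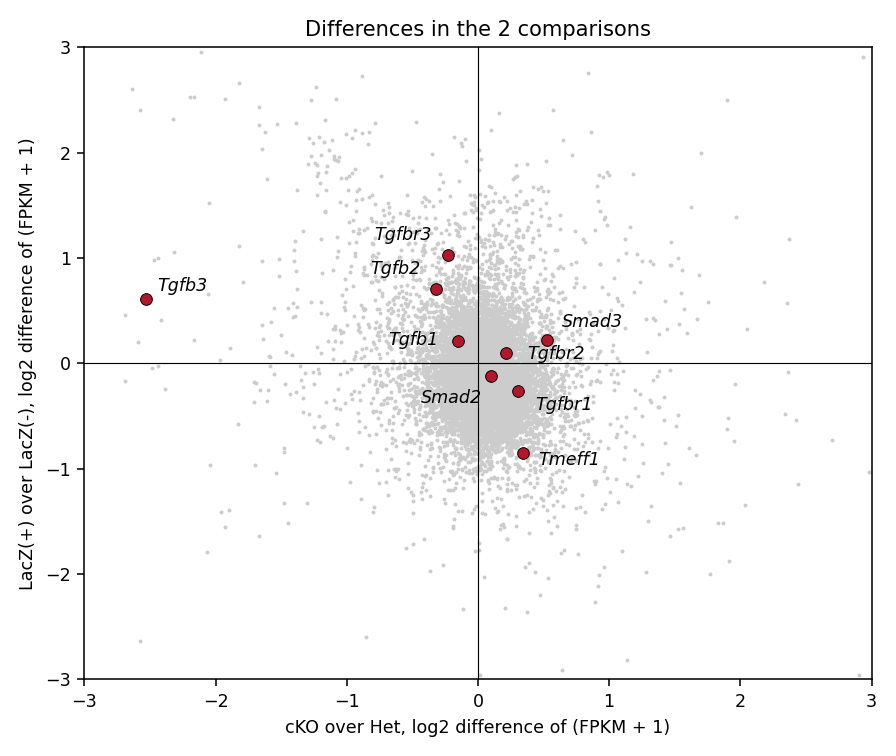
Each gene's log2 difference of (FPKM + 1) in the first comparison (x axis) and in the second (y axis), with the 9 genes in red and all 12499 genes measured in both in grey, apart from 115 beyond the axes. The 3 ligand genes and Tgfbr3 lie in the upper left and Tmeff1 in the lower right.

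The genes whose pair of differences lay closest to Tgfb3, by straight-line distance over the 2 log2 differences from the 4 libraries, were Fam40b, Axin2 and Diras2. The distance does not ask that the levels be alike. Fam40b stood at 0.620 FPKM in cKO-labelled cells and 9.44 in Het-labelled cells, and at 10.1 in LacZ(+) cells and 7.09 in LacZ(-) cells. It lay at a distance of 0.22 on the log2 scale. Axin2, the feedback inhibitor of Wnt signalling whose reporter defined the sort, stood at 2.12 FPKM in cKO-labelled cells and 16.3 in Het-labelled cells, and at 19.0 in LacZ(+) cells and 9.10 in LacZ(-) cells. Its distance was 0.38, and its interval holds 2 genes. Diras2, a gene of the Ras family, lay at 0.40. It stood at 1.88 FPKM in cKO-labelled cells and 14.6 in Het-labelled cells, and at 2.23 in LacZ(+) cells and 0.611 in LacZ(-) cells. Of 10506 genes compared, 5 lay within 0.5 of Tgfb3. For Tgfbr3 there were 374 within that distance, led by Flrt3 (0.02, in an interval of 8 genes), the kinase gene Tec (0.03) and Nlrc5 (0.04), so its pattern was a common one.

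Latency and activation genes of the pathway held members past the 2-fold line in both directions. Of the 14 genes listed, 9 reached 1 FPKM in the first comparison, with 1 higher and 1 lower by 2-fold or more, where 1.8% and 2.29% of all genes were, and a median of 0.05. In the second 10 did, with 1 higher and 1 lower, where 4.67% and 2.6% of all genes were, and a median of -0.22. Itgb6, the integrin chain that activates latent ligand in epithelia, stood at 4.20 FPKM in cKO-labelled cells and 13.4 in Het-labelled cells, a log2 difference of -1.47. Among the LacZ libraries it stood at 63.8 FPKM in LacZ(+) cells and 73.1 in LacZ(-) cells. Thbs1, encoding thrombospondin, stood at 244 FPKM in cKO-labelled cells and 114 in Het-labelled cells (log2 difference 1.10), and at 9.96 in LacZ(+) cells and 6.48 in LacZ(-) cells (0.55). Ltbp2, a latent TGF-β binding protein gene whose interval holds 2 genes, stood at 17.7 FPKM in LacZ(+) cells and 49.2 in LacZ(-) cells, a log2 difference of -1.43, and at 111 FPKM in cKO-labelled cells and 107 in Het-labelled cells. Ltbp4 had the highest mean FPKM of the list over the 4 libraries, with 140 FPKM in cKO-labelled cells and 129 in Het-labelled cells, and at 120 in LacZ(+) cells and 142 in LacZ(-) cells. Dcn, a matrix proteoglycan gene that is also on the fibroblast marker list, was low, at 2.16 FPKM in LacZ(+) cells and 0.423 in LacZ(-) cells (1.15).

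Other receptors and the activin-type ligands held no gene past the line in either comparison. Of all genes, 1.8% were past it as higher and 2.29% as lower in the first, and 4.67% and 2.6% in the second. Of the receptor and co-receptor list, 9 of 10 genes were measured in the first comparison (median 0.04) and 8 in the second (0.03). Cd109, a co-receptor that dampens TGF-β signalling in keratinocytes, led it at 80.2 FPKM in cKO-labelled cells and 67.3 in Het-labelled cells, and at 45.1 in LacZ(+) cells and 32.9 in LacZ(-) cells. Sdc2, a syndecan gene, stood between 20.8 and 38.8 FPKM. Of the activin-type list, 6 of 10 genes were measured in the first comparison (median 0.02) and 5 in the second (-0.29). The activin antagonist gene Fst stood at 56.5 FPKM in cKO-labelled cells and 95.9 in Het-labelled cells, a log2 difference of -0.75, and at 110 in LacZ(+) cells and 92.0 in LacZ(-) cells (0.26). Its relative Fstl3 stood at 35.1 FPKM in cKO-labelled cells and 26.3 in Het-labelled cells, and at 11.9 in LacZ(+) cells and 15.9 in LacZ(-) cells.

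Smad partners and inhibitors lay close to 0, with Smad7 as the exception. Of 18 genes, 16 were measured in the first comparison, none past the line, with a median of 0.03. Of all genes, 1.8% were past it as higher and 2.29% as lower. In the second, 17 were measured and 1 was lower by 2-fold or more, where 2.6% of all genes were. The median was -0.01. Smad7, the feedback inhibitor of the receptors that TGF-β and BMP signals induce, stood at 13.7 FPKM in LacZ(+) cells and 28.5 in LacZ(-) cells (log2 difference -1.01) and at 7.67 FPKM in cKO-labelled cells and 12.5 in Het-labelled cells (-0.64). The first value is at the line and came to -0.84 after centring. Tgif1, a Smad corepressor gene, had the highest mean FPKM of the list over the 4 libraries, with 67.7 FPKM in cKO-labelled cells and 70.6 in Het-labelled cells, and 54.6 in LacZ(+) cells and 59.4 in LacZ(-) cells. Strap, encoding a receptor-associated inhibitor, stood at 44.5 FPKM in cKO-labelled cells and 39.9 in Het-labelled cells, and at 53.6 in LacZ(+) cells and 69.9 in LacZ(-) cells.

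Genes known to respond to TGF-β passed the 2-fold line in both directions only in the second comparison. The list has 28 genes, of which Tgfb1 and Tmeff1 are members themselves and Thbs1, Ltbp2, Smad7, Skil and Pmepa1 stand in the lists above. In the first comparison 21 were measured, 17 above 0 and 4 below, where 7924 of all 13014 genes were above 0. Of the 21, 3 were at least 2-fold higher and 0 as much lower, where 1.8% and 2.29% of all genes were. The median was 0.19, against 0.06 for all genes. The 3 were Thbs1, Cyr61 and Col1a1. Cyr61, a matrix-associated signalling protein gene that also belongs to the immediate early genes, stood at 618 FPKM in cKO-labelled cells and 210 in Het-labelled cells (log2 difference 1.55), and at 38.8 in LacZ(+) cells and 24.1 in LacZ(-) cells (0.66). Col1a1, a collagen gene that is also on the fibroblast list and has 2 genes in its interval, stood at 10.3 FPKM in cKO-labelled cells and 3.72 in Het-labelled cells (1.26), and at 6.29 in LacZ(+) cells and 13.1 in LacZ(-) cells (-0.95). In the second comparison 22 were measured, 8 above 0 and 14 below, where 4860 of all 13283 genes were above 0. Of the 22, 2 were at least 2-fold higher and 2 as much lower, where 4.67% and 2.6% of all genes were. The median was -0.24, against -0.13 for all genes. Vim, the intermediate filament gene of mesenchymal cells, stood at 6.12 FPKM in LacZ(+) cells and 1.82 in LacZ(-) cells (1.34), and Bhlhe40, a transcription repressor gene with 3 genes in its interval, at 14.5 in LacZ(+) cells and 5.92 in LacZ(-) cells (1.17). The lower ones were Smad7 and Ltbp2. Tgfbi and Ctgf had the highest mean FPKM of the list over the 4 libraries. Ctgf stood at 773 FPKM in cKO-labelled cells and 719 in Het-labelled cells, and at 53.5 in LacZ(+) cells and 79.6 in LacZ(-) cells. Tgfbi stood at 557 FPKM in cKO-labelled cells and 495 in Het-labelled cells, and at 293 in LacZ(+) cells and 496 in LacZ(-) cells.

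**Figure D5:**
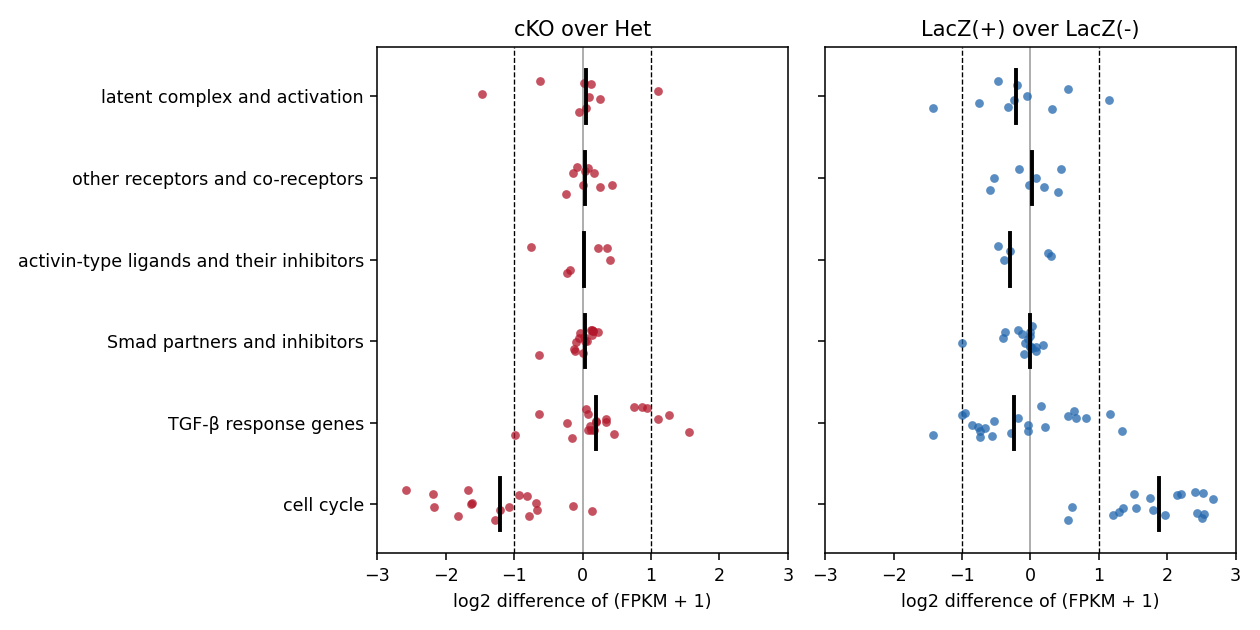
log2 difference of (FPKM + 1) of each measured gene of 5 TGF-β pathway lists and of the cell cycle list, 1 point per gene, with the list's median as a black bar and the 2-fold lines dashed. The pathway lists have medians between -0.29 and 0.19, while the cell cycle list has medians of -1.21 (left) and 1.88 (right).

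Other gene groups differed alongside Tgfb3 and Tgfbr3. Of 17 measured cell cycle genes, 10 were lower by 2-fold or more in cKO-labelled cells, where 2.29% of all genes were. Their median was -1.21, against 0.06 for all genes. Of 18 measured in the second comparison, 16 were higher by 2-fold or more in LacZ(+) cells, where 4.67% of all genes were. The median was 1.88 there, against -0.13 for all genes. Top2a, with 3 genes in its interval, stood at 1.11 FPKM in cKO-labelled cells and 11.6 in Het-labelled cells, and at 38.3 in LacZ(+) cells and 6.42 in LacZ(-) cells. Pcna stood at 79.1 FPKM in cKO-labelled cells and 71.8 in Het-labelled cells, and at 113 in LacZ(+) cells and 76.6 in LacZ(-) cells. Markers of the suprabasal epidermis, 5 of 5 measured, summed to 2337 FPKM in LacZ(+) cells and 946 in LacZ(-) cells, and to 655 in cKO-labelled cells and 629 in Het-labelled cells. The part of these groups in the differences of Tgfb3 and Tgfbr3 was not tested.

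Dermal papilla and fibroblast markers, which belong to cells known to make TGF-β ligands, summed to 48.7 FPKM in cKO-labelled cells and 23.6 in Het-labelled cells. The 3 measured there were Col1a1, Col1a2 and Crabp1, with Crabp1 at 25.5 FPKM in cKO-labelled cells and 8.77 in Het-labelled cells. The list summed to 13.2 FPKM in LacZ(+) cells and 19.8 in LacZ(-) cells. Of the 4 measured in that pair, Crabp1 and Dcn were higher in LacZ(+) cells and Col1a1 and Col1a2 lower. Of the 10 markers, 3 or 4 reached 1 FPKM in a library, Sox2 is listed at 0 in all 4, and Pdgfra and Col3a1 were at or under 0.204 FPKM. Leukocyte markers summed to 8.64 FPKM in cKO-labelled cells and 5.31 in Het-labelled cells, and to 4.86 in LacZ(+) cells and 3.50 in LacZ(-) cells, with 2 of 6 at 1 FPKM or more and Ptprc at or under 0.0696. Endothelial and mural markers, 0 of 5 at 1 FPKM, summed to at most 0.615 FPKM. Melanocyte markers summed to 45.3 FPKM in cKO-labelled cells and 47.3 in Het-labelled cells, mostly Mitf. They summed to 28.9 in LacZ(+) cells and 28.4 in LacZ(-) cells. There Dct stood at 15.2 FPKM in LacZ(+) cells and 12.5 in LacZ(-) cells, and Mitf at 9.41 and 13.6. Of the 4 melanocyte markers measured in that pair, 3 were higher in LacZ(+) cells and 1, Mitf, was lower. Hair germ markers summed to 40.6 FPKM in cKO-labelled cells and 67.3 in Het-labelled cells, and to 47.1 in LacZ(+) cells and 60.1 in LacZ(-) cells. The part of these markers was not tested.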

How the data were processed

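Gene expression of 4 libraries was read from 2 tables of 32091 rows. The values are FPKM as the authors deposited them, per the file headers, beside a deposited log2 ratio of cKO over Het in the first table, quoted once for Tgfb3. Cufflinks 2.1.1, TopHat2 2.0.4 and TopHat are the tools, and mm9 and GRCm38 the builds, that the submitters' processing notes list, with no role for any. Strand and multi-read settings were not stated there. Per the labels' protocols, libraries were made with Illumina's TruSeq mRNA kit. FPKM divides by a library total, so abundant transcripts can shift all values, and it keeps no counts, so no interval was computed. Coordinates are those of the tables, taken as mm9.

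Rows of a symbol were summed, 25 symbols turned into dates were restored through the Ensembl identifiers, and 1 list gene was matched by identifier under an older name. Differences are log2 of (FPKM + 1) ratios over genes that reach 1 FPKM in at least one library of the pair; this understates changes of low genes. Each group has 1 library, so no test was made. The 2-fold line is a log2 difference of 1. The genes, lists and rules were chosen with earlier results of these data known. Named were the 9 genes; of each list those past the line in either comparison and the 2 with the highest mean FPKM (for the cell cycle list only those 2); and the 3 genes nearest to each of the 9 past the line. Tmeff2, Skil, Pmepa1 and the markers quoted were added after their values were seen. Other settings tried were pseudocounts of 0.1 and 5, no minimum and one of 5 FPKM, centring, upper-quartile scaling, taking a symbol's highest row, removing symbols of small RNA, Gm, Rik and clone type, and keeping genes alone in their interval. Keeping genes above 0 in both libraries was a choice made after seeing the data. The log2 difference and the 2-fold line were tested on simulated data with known changes, for genes with higher FPKM than the 9. The other steps were not tested in this way. Analysis used Python 3.11.15, pandas 2.3.3, numpy 2.4.6 and matplotlib 3.10.9.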

Additional observations from a re-analysis of the deposited data

How the results depend on the processing

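No paired analysis was possible because each group has 1 library, and no library could be left out. The log2 difference of Tgfb3 in the first comparison stayed past the 2-fold line in all 10 alternatives, from -3.21 to -1.42. The number of the 9 genes lower in cKO-labelled cells stayed at 1 and their median there moved by less than 0.1. In the LacZ pair the median of the 9 genes was 0.38 after centring or upper-quartile scaling and 0.047 with a minimum of 5 FPKM, which leaves 4 genes. There the number higher was 0 with a pseudocount of 5 and with a minimum of 5 FPKM, and the number lower was 1 (Tmeff1) with a pseudocount of 0.1.

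Counts over all genes depended more on the setting. In the first comparison 144 genes were higher and 159 lower with a pseudocount of 5, 95 and 135 without small RNA, Gm, Rik and clone symbols, 116 and 141 among genes alone in their interval, and 140 and 195 among genes above 0 in both libraries. In the LacZ pair 282 were higher and 178 lower with a pseudocount of 5, 400 and 195 without those symbols, and 323 and 184 among genes alone in their interval, while 528 were lower with a pseudocount of 0.1, 224 after centring and 215 with upper-quartile scaling. Centring subtracts the pair's median over genes that reach 5 FPKM in each library, -0.17 for the LacZ pair and 0.07 for the first. The cause of the other shifts was not tested. Depth is unknown, so the counting error of genes near 1 FPKM, such as Tgfb3 in cKO-labelled cells, cannot be given.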

Other observations

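The levels of some further genes around TGF-β signalling are given side by side for the 2 tables, with no comparison, since the tables differ in strain, sex, age, labelled stage and normalisation. The genes were chosen after their values were seen. Lefty1, an inhibitor of Nodal-type ligands, stood at 23.1 and 19.5 FPKM in cKO-labelled and Het-labelled cells and at 0.913 and 1.66 in LacZ(+) and LacZ(-) cells, while Nodal is listed at 0 in all 4. Acvrl1, a type I receptor gene best known from endothelium, stood at 21.8 and 21.2 FPKM in cKO-labelled and Het-labelled cells and at 4.79 and 7.71 in LacZ(+) and LacZ(-) cells, with another gene in its interval, while the endothelial markers listed stayed under 1 FPKM. The cell cycle inhibitor gene Cdkn1a stood at 31.1 FPKM in cKO-labelled cells and 18.1 in Het-labelled cells, and at 48.4 in LacZ(+) cells and 27.2 in LacZ(-) cells, higher in the first-named library of both pairs but under the 2-fold line.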
